A study of Oryza sativa with 12 samples.

Results

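Cellulose synthases (CESA) were followed in the roots of the hybrid rice Xieyou9308 and of R9308 and Xieqingzao B, its parents. The members were 8 genes taken from a list of RAP locus identifiers and matched to the locus given in each transcript identifier. All 8 had rows in the deposited table of base calls, out of 23892 loci. The primary wall genes were CESA1 (Os05t0176100, chromosome 5), CESA3 (Os07t0424400, chromosome 7), CESA5 (Os03t0837100, chromosome 3), CESA6 (Os07t0252400, chromosome 7) and CESA8 (Os07t0208500, chromosome 7). The secondary wall genes were CESA4 (Os01t0750300, chromosome 1), CESA7 (Os10t0467800, chromosome 10) and CESA9 (Os09t0422500, chromosome 9). A RefSeq gene table of another rice assembly placed genes with all 8 names on the same chromosomes.

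Cellulose is spun at the plasma membrane by rosette-shaped complexes whose catalytic subunits are CESA proteins. In rice, as in other plants, one set of subunits makes cellulose for the thin primary wall of growing cells, and another set makes it for the thick secondary wall of xylem and fibre cells. CESA4, CESA7 and CESA9 form the secondary wall set, and rice plants that lose any of them have brittle culms.

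Xieyou9308 is the F1 of R9308, the male restorer line, and Xieqingzao B, the female line. The 12 root samples were 2 roots of each of the 3 genotypes at the heading and at the tillering stage, from plants grown on foam floats over nutrient solution after a seedling phase in the field. The roots of a genotype and stage were pooled before bases were called, so there were 6 pools, each with 1 value and no replicate spread. No difference in level between pools could therefore be tested, and folds are set against the share of all transcripts past the same fold. Every pool is a bulk root, in which fewer cells of a type and less RNA per cell cannot be told apart.

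The table lists positions in transcripts where a base was called, with the reads that supported it. Of its 249857 sites, 114 lay in CESA transcripts, in 20 transcript forms, and 46 of these had a call in all 6 pools. The sites in all 6 pools summed to between 6038471 and 8462795 reads per pool. Relative depth is the mean, over the sites of a transcript, of supporting reads per 1000000 reads of that sum. A transcript entered with sites called in all 6 pools and a mean depth of at least 10 reads. This left 17394 transcripts, of which 11 were CESA transcripts of 7 genes. CESA5 had 1 site, at position 3 of Os03t0837100-01, with 14 and 16 reads in Xieyou9308 at heading and tillering, 6 reads in R9308 at heading and 31 reads in Xieqingzao B at tillering, and no call in the other pools. No level could be formed for it. Read support also had its limits in CESA1 and CESA3, where 53.0% and 41.0% of calls had a quality score under 20, against 13.6% over the whole table.

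The root label could not be tested with named markers, since neither the table nor the reference pairs RAP identifiers with gene names. A list of 4 loci kept as root markers had usable sites at all 4, with a highest relative depth between 220 and 519 over the pools. These loci moved between stages themselves, and 3 were at least 2-fold higher and 1 lower at heading in Xieyou9308 and in R9308, and 2 higher and 1 lower in Xieqingzao B. Of 3 loci kept as leaf markers 1 had a usable site, and it had 181 and 4 reads in Xieyou9308 at heading and tillering, 2 and 1807 reads in R9308, and 39 and 2 reads in Xieqingzao B. R9308 at tillering thus stood apart at this site, and Xieyou9308 at heading lay above both parents there, as most CESA transcripts did. The part of this locus and of the root loci in the CESA differences was not tested. A second pool stood apart along transcripts. In Xieyou9308 at tillering log2 relative depth, less its mean over all pools at each site, increased towards the 3′ end. The median slope of this difference was 0.392 log2 units per kb over 2376 transcripts, against −0.123 to −0.039 in the other 5 pools. Slopes given here are all relative to that mean, so a slope below 0 does not mean that depth itself fell.

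**Figure D1:**
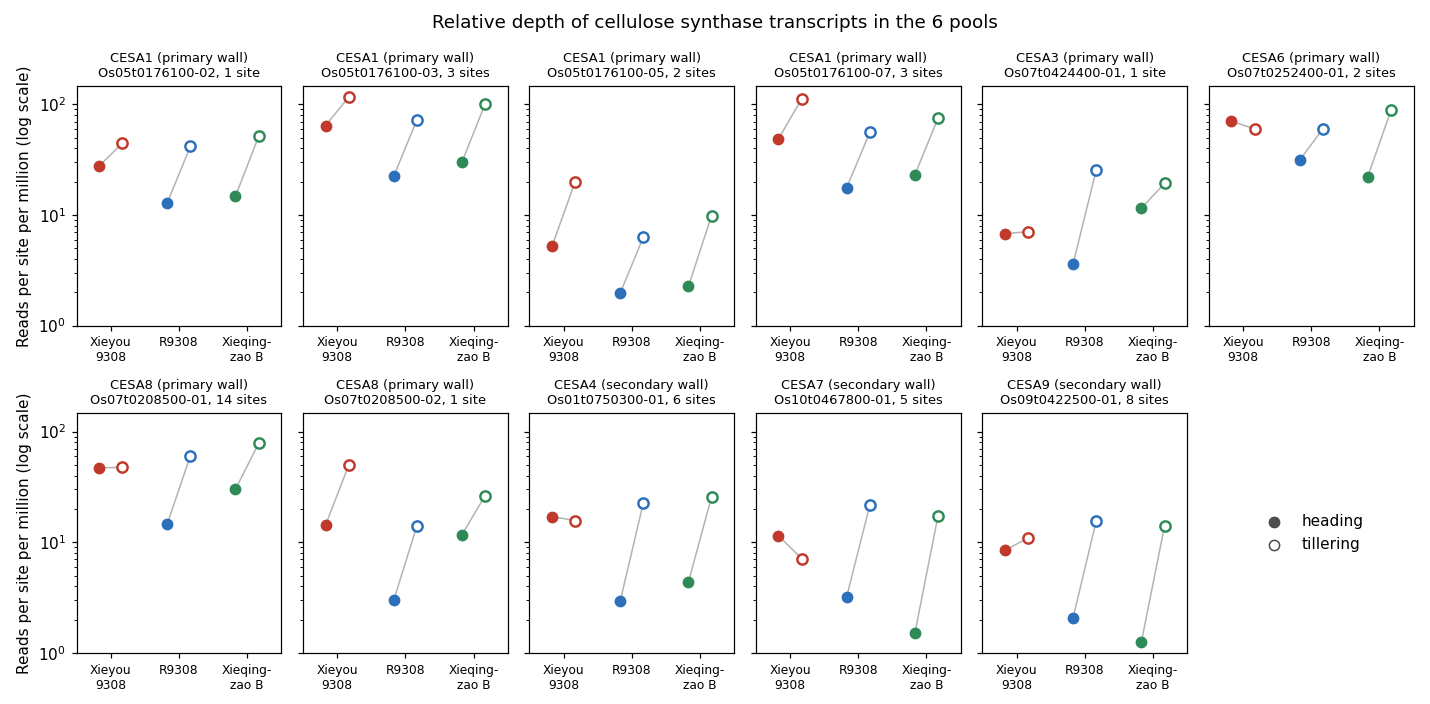
Relative depth (reads per site per 1000000 reads, log scale) of the 11 CESA transcripts in Xieyou9308, R9308 and Xieqingzao B. Filled points are heading and open points are tillering, with 1 pooled value each and no error bars. In both parents all 11 filled points lie below their open points. In Xieyou9308 the points of CESA3, CESA4, CESA6, CESA8 (Os07t0208500-01) and CESA9 lie close together.

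The secondary wall genes were lower at heading than at tillering in both parents, by more than 5-fold each, and stayed within 2-fold in the hybrid. CESA4, measured at 6 sites of Os01t0750300-01, had a relative depth of 17.1 at heading and 15.7 at tillering in Xieyou9308, 2.94 and 22.8 in R9308, and 4.36 and 25.8 in Xieqingzao B. CESA7, at 5 sites of Os10t0467800-01, had 11.4 at heading and 7.13 at tillering in Xieyou9308, 3.21 and 21.7 in R9308, and 1.51 and 17.4 in Xieqingzao B. CESA9, at 8 sites of Os09t0422500-01, had 8.43 at heading and 10.96 at tillering in Xieyou9308, 2.09 and 15.7 in R9308, and 1.25 and 13.98 in Xieqingzao B. The lowest levels of all 3 genes were those of the parents at heading, and the highest were those of the parents at tillering. The hybrid lay between them at both stages.

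As log2 differences of heading over tillering, R9308 had −2.96 for CESA4, −2.76 for CESA7 and −2.91 for CESA9, which are levels 7.76, 6.77 and 7.53 times lower at heading. Xieqingzao B had −2.56, −3.53 and −3.48 for the same genes, or 5.90, 11.5 and 11.2 times lower. Every site of the 3 genes was at least 2-fold lower at heading in both parents, 6 of 6 in CESA4, 5 of 5 in CESA7 and 8 of 8 in CESA9. The parental pools at heading held few reads per site, with means of 18.7, 20.4 and 13.2 in R9308 and 31.8, 11 and 9.1 in Xieqingzao B for CESA4, CESA7 and CESA9. With 95% intervals that cover counting error at that mean depth, the smallest of the 6 parental falls, CESA4 in Xieqingzao B, lay between −3.11 and −2.01.

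In Xieyou9308 the same differences were 0.12 for CESA4 (−0.28 to 0.52), 0.68 for CESA7 (0.13 to 1.23) and −0.38 for CESA9 (−0.91 to 0.15). The 3′ gradient of the tillering pool enters these values. In CESA9 the site at position 3342 had 334 reads in Xieyou9308 at tillering, where the other 7 sites had between 9 and 62 reads. It was the only site of CESA9 below 0 in the hybrid, and without it the difference was 0.86. The difference at single sites thus ran from −2.85 to 2.37 in CESA9, from −0.85 to 2.52 in CESA7 and from −0.56 to 1.15 in CESA4. Relative to the mean over all pools, the slope along CESA9 was 1.505 log2 units per kb in Xieyou9308 at tillering. It was between −0.487 and −0.063 in the other pools, which does not mean that depth itself fell there. The slope along CESA7, taken in the same way, was 0.707 in Xieyou9308 at tillering, and between −0.505 and 0.153 in the others.

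**Figure D2:**
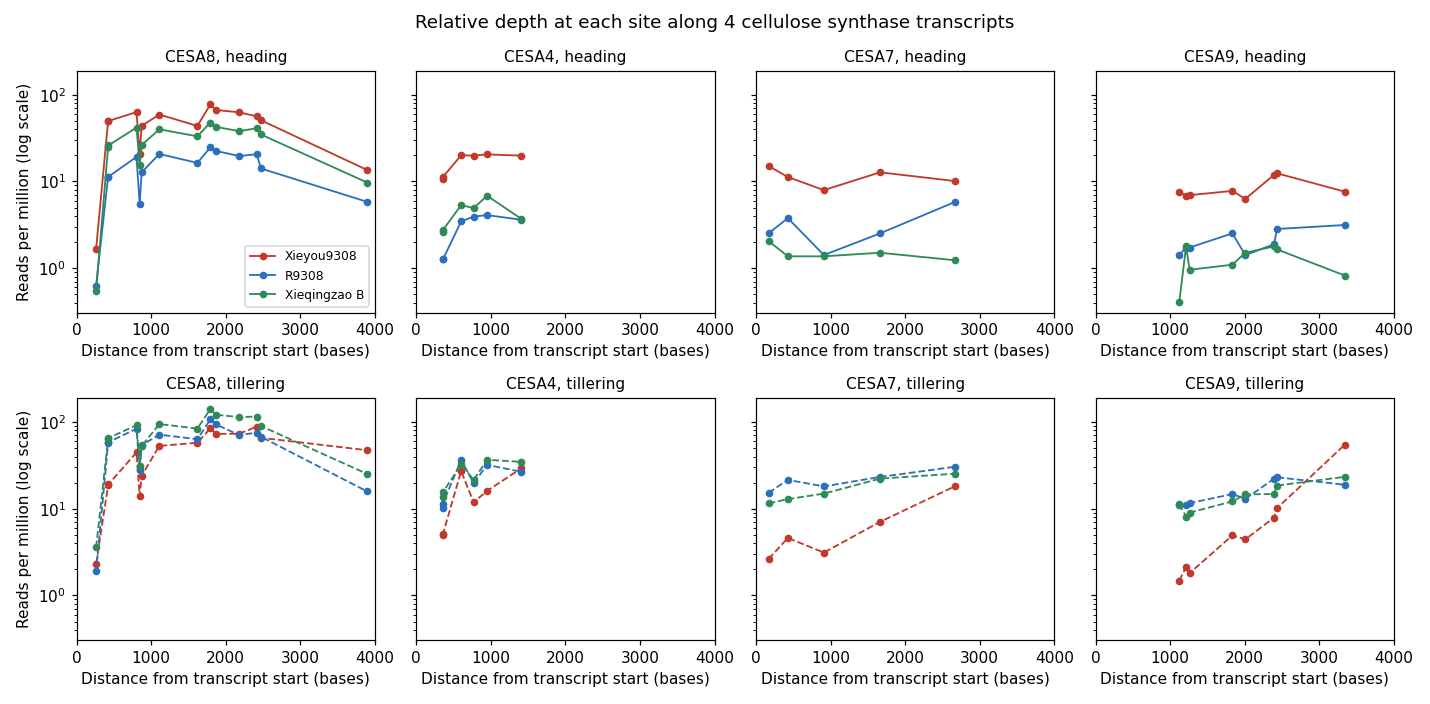
Relative depth at each site (reads per 1000000 reads, log scale) against distance from the transcript start in bases, for CESA8 (Os07t0208500-01), CESA4, CESA7 and CESA9, with heading in the upper row and tillering in the lower row. Each line is 1 pool. At heading Xieyou9308 lies above both parents at every site of the 4 transcripts. At tillering its line climbs towards the 3′ end of CESA9, to 54.8 at position 3342, against 1.48 at position 1122.

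The primary wall transcripts were lower at heading in both parents as well, by less than the secondary wall genes except for CESA3 in R9308. CESA8 had the best support, with 14 sites in Os07t0208500-01, and a relative depth of 47.1 at heading and 47.6 at tillering in Xieyou9308, 14.7 and 60.6 in R9308, and 30.2 and 78.2 in Xieqingzao B. Its log2 difference was −2.05 in R9308 and −1.37 in Xieqingzao B, with all 14 sites below 0 in each. In Xieyou9308 it was −0.01, with 8 of 14 sites below 0 and single sites from −1.80 to 1.42. That value was 0.71 from sites before position 1500 and −0.40 from sites beyond it. The 3′ gradient of the hybrid tillering pool enters it. Relative to the mean over all pools, the slope along this transcript was 0.494 log2 units per kb in that pool. In the other pools the slope lay between −0.194 and −0.022. The second form, Os07t0208500-02, rests on 1 site with a quality score under 20 in at least 1 pool, with 14.2 and 49.8 in Xieyou9308, 2.99 and 14.1 in R9308, and 11.6 and 26.5 in Xieqingzao B at heading and tillering. It was lower at heading in all 3 genotypes. Position 3896 of Os07t0208500-01, which matches its site, was lower as well, with 13.6 at heading and 47.3 at tillering in Xieyou9308.

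CESA6, at 2 sites of Os07t0252400-01, had 70.2 at heading and 60.2 at tillering in Xieyou9308, 31.3 and 59.7 in R9308, and 22.3 and 88.4 in Xieqingzao B. Its log2 difference was 0.22 in Xieyou9308, −0.93 in R9308 and −1.99 in Xieqingzao B, so that the fall in R9308 did not reach 2-fold. CESA3, at 1 site of Os07t0424400-01, had 6.79 and 7.06 in Xieyou9308, 3.62 and 25.8 in R9308, and 11.5 and 19.3 in Xieqingzao B. The difference was −0.06 in Xieyou9308, −2.83 in R9308 and −0.75 in Xieqingzao B, and a single site with a quality score under 20 in at least 1 pool carries it.

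CESA1 had 4 measured forms, among which RSEM shares out reads that match more than 1 form. The sites lay at positions 605 to 996 in Os05t0176100-07 and at positions 2399 to 3796 in the other forms. Positions 605, 835 and 996 of Os05t0176100-07 match positions 3353, 3583 and 3744 of the other forms in bases, at a constant offset of 2748, so that all these sites lie towards the 3′ end of the longer forms. The most deeply covered, Os05t0176100-03 with 3 sites, had 64.3 at heading and 116 at tillering in Xieyou9308, 22.4 and 72.5 in R9308, and 30.1 and 101 in Xieqingzao B. Over the 4 forms the log2 difference lay between −1.94 and −0.69 in Xieyou9308, between −1.70 and −1.67 in R9308 and between −2.13 and −1.69 in Xieqingzao B. All 4 forms were thus lower at heading in the hybrid as well as in the parents, but in the hybrid the size grew towards the 3′ end, where the tillering pool had raised depth. In Os05t0176100-03 the difference was −0.33 at position 2399, −0.67 at position 3353 and −1.41 at position 3583, and no CESA1 site before position 2399 of the longer forms was measured.

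The 11 transcripts are not separate measurements, since forms of CESA1 share sites and position 1184 of Os07t0208500-02 of CESA8 matches position 3896 of Os07t0208500-01, with 303 and 288 reads in Xieyou9308 at tillering. Counted over them, 10 were at least 2-fold lower at heading in R9308, where 17.4% of all 17394 transcripts were, and 10 in Xieqingzao B, where 13.9% were. The median log2 difference was −2.05 in R9308, against −0.09 over all transcripts, and −1.80 in Xieqingzao B, against 0.06. No CESA transcript was at least 2-fold higher at heading in either parent, where 8.49% and 11.6% of all transcripts were. In Xieyou9308 3 transcripts were at least 2-fold lower (2 forms of CESA1 and Os07t0208500-02 of CESA8), where 19.4% of all transcripts were, and none was higher, where 16.9% were. The median was −0.38, against −0.09. With the median over sites in place of the mean 4 were lower and 1 was higher, and from sites before position 1500 2 were lower and 2 higher of 8, the higher ones being CESA7 (1.73) and CESA9 (1.98). With 1 form per gene, 6 of 7 genes were at least 2-fold lower at heading in R9308, 6 of 7 in Xieqingzao B and none in Xieyou9308. Beyond the CESA genes, 21 loci of related wall proteins had been listed, of which 11 had usable sites, in 13 transcripts. Of these 13, 7 were lower and 1 was higher at heading in R9308, 6 and 1 in Xieqingzao B, and 4 and 3 in Xieyou9308, with medians of −1.15, −0.89 and −0.48. Their identifiers could not be paired with names here.

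**Figure D3:**
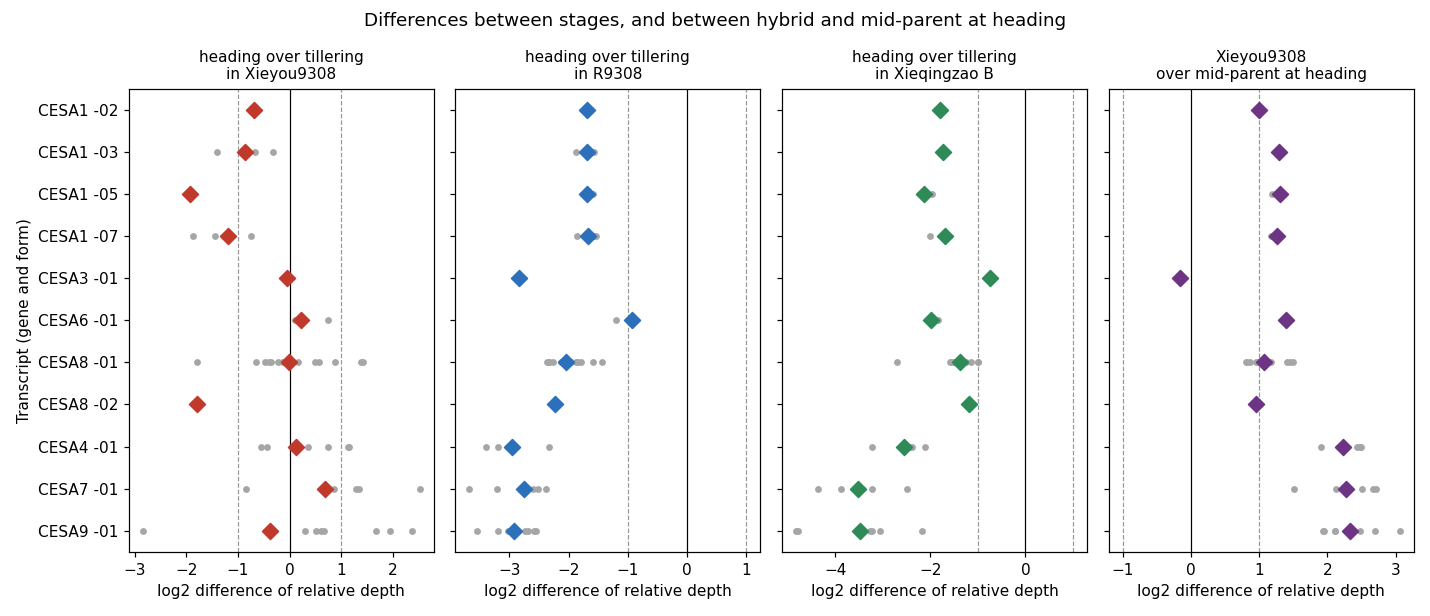
Log2 differences of relative depth for the 11 CESA transcripts, heading over tillering in Xieyou9308, R9308 and Xieqingzao B, and Xieyou9308 over the mid-parent at heading. Diamonds are transcripts, grey points are their single sites, and dashed lines mark 2-fold. The parental diamonds all lie left of 0, while those of the hybrid over the mid-parent lie right of 0 in 10 of 11 transcripts. The grey points of Xieyou9308 between stages spread on both sides of 0.

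Set against the mid-parent, the mean of R9308 and Xieqingzao B, the hybrid had more reads of nearly all CESA transcripts at heading. CESA9 had a relative depth of 8.43 in Xieyou9308 and 1.67 in the mid-parent, a log2 difference of 2.34 (1.62 to 3.05) or 5.05-fold. CESA7 had 11.4 and 2.36, a difference of 2.28 (1.67 to 2.89), and CESA4 had 17.1 and 3.65, a difference of 2.23 (1.74 to 2.71). All 19 sites of the 3 genes were at least 2-fold higher in the hybrid. Each hybrid value also lay above the higher parent, R9308 for CESA7 and CESA9 and Xieqingzao B for CESA4.

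Among primary wall transcripts the difference over the mid-parent at heading was 1.39 for CESA6, 1.07 for Os07t0208500-01 of CESA8, and between 0.998 and 1.30 for the 4 forms of CESA1. CESA3 had −0.16 (−0.68 to 0.36) and was the only transcript below 0. In all, 8 of the 11 transcripts were at least 2-fold higher in Xieyou9308, where 6.78% of all transcripts were, and none was lower, where 7.19% were. Just inside this limit lay Os07t0208500-01 of CESA8 with a log2 difference of 1.07, and just outside it Os05t0176100-02 of CESA1 with 0.998 and Os07t0208500-02 of CESA8 with 0.96. The median was 1.29, against −0.08 over all transcripts. With 1 form per gene 6 of 7 genes were at least 2-fold higher. Of the 13 related wall transcripts 3 were higher and none was lower. This comparison uses the same heading pools as those between stages and is not independent of them.

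At tillering the hybrid was not above the mid-parent as a group. The median was −0.30, against 0.02 over all transcripts, and 7 of 11 transcripts lay below 0. CESA4 had 15.7 in Xieyou9308 and 24.3 in the mid-parent, CESA7 had 7.13 and 19.6, and CESA9 had 10.96 and 14.8, with log2 differences of −0.63, −1.46 and −0.44. CESA7 and CESA3 (−1.67) were at least 2-fold lower, where 15.7% of all transcripts were, and Os05t0176100-05 of CESA1 (1.31) and Os07t0208500-02 of CESA8 (1.30) were at least 2-fold higher, where 11.1% were. Together 4 of 11 passed 2-fold in either direction, where 26.8% of all transcripts did. Those 2 high forms rest on sites with a quality score under 20 in at least 1 pool. The value of CESA3 rests on 1 such site, position 632, and was −0.04 with sites called in the pools compared. Position 3825 of CESA3 was left out because R9308 had no call there at heading. At tillering it had 709 reads in Xieyou9308, 704 in R9308 and 599 in Xieqingzao B. The 3′ gradient of the hybrid pool enters these values too, and at single sites of CESA9 the difference ran from −2.93 to 1.38. Of its 8 sites 7 were at least 2-fold lower in the hybrid, and without the site at position 3342 CESA9 had −1.57.

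Between the parents all CESA transcripts stayed within 2-fold at tillering. The log2 difference of R9308 over Xieqingzao B lay between −0.91 and 0.42, while 17.3% of all transcripts passed 2-fold in either direction and 6.63% were lower in R9308. At heading CESA8 was lower in R9308 in both forms, with 14.7 in R9308 and 30.2 in Xieqingzao B for Os07t0208500-01 (−1.04, 13 of 14 sites below 0) and 2.99 and 11.6 for Os07t0208500-02 (−1.96). The forms are not separate measurements here. The only site of Os07t0208500-02, position 1184, had 19 reads in R9308 with a quality score of 4.12. The position of Os07t0208500-01 that matches it, 3896, had 5.82 in R9308 and 9.73 in Xieqingzao B. CESA3 was lower as well (−1.67), so that 3 transcripts were at least 2-fold lower in R9308, where 14% of all transcripts were. CESA7 was at least 2-fold higher, where 12.2% were, with 3.21 in R9308 and 1.51 in Xieqingzao B (1.09), but its counting interval ran from 0.03 to 2.15. R9308 carried the reference base at all 6 sites of CESA7 where the parents differed. The part of a mapping preference for reference bases in this difference was not tested. CESA6 had 31.3 in R9308 and 22.3 in Xieqingzao B at heading, and 59.7 and 88.4 at tillering, with differences of 0.49 and −0.57. At its 2 sites called in all 6 pools the heading difference was −0.003 and 0.63.

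Pearson's r of log2 relative depth over the 6 pools is given for 1 form of each of the 7 genes, since forms share sites. Pairs without CESA3 had r between 0.754 and 0.958, with a median of 0.907, and pairs with CESA3 had r between 0.371 and 0.782, with a median of 0.528. The median over all pairs of the 17394 transcripts was 0.005. For the pairs among CESA4, CESA7 and CESA9 r lay between 0.907 and 0.958. These 6 points share their libraries, and r is given as a description. The mean primary wall profile below was taken over all 8 primary wall transcripts. It holds every measured form of CESA1 and CESA8, although forms share sites. Of 6343 other transcripts with at least 3 sites and a log2 range of at least 1, 265 had r above 0.9 with the mean primary wall profile and 124 with the mean secondary wall profile. The closest to the secondary wall profile were Os06t0725200-01 (r = 0.993), Os10t0532600-01 (0.992) and Os05t0226900-01 (0.988). Os06t0725200-01 had a relative depth of 16.6 at heading and 14.2 at tillering in Xieyou9308, 2.52 and 27.5 in R9308, and 2.74 and 26.1 in Xieqingzao B. The closest to the primary wall profile were Os01t0744400-01 (0.996), Os04t0677700-00 (0.994) and Os03t0126700-01 (0.993).

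The bases called in the parents divided the CESA genes into those whose alleles could be told apart in the hybrid and those whose alleles could not. At 55 of the 114 sites both parents carried the same base, which differed from the Nipponbare reference, among them 20 of 23 sites in CESA8, 17 of 25 in CESA1, 9 of 15 in CESA3 and 8 of 10 in CESA4. The parents differed at 32 sites, 14 in CESA9, 6 in CESA7, 6 in CESA6 and 6 in CESA3, and at none in CESA1, CESA4, CESA5 and CESA8. R9308 carried the reference base at 29 of the 32 sites, or 90.6%, against 72.8% of the 48767 such sites of the whole table. In CESA7 and CESA9 it did so at all 20 sites. In these genes the R9308 allele is therefore also the reference allele, and a preference of the mapping for reference bases and a bias towards the R9308 allele cannot be told apart.

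At the 32 sites Xieyou9308 had both parental bases at 19 at heading and at 18 at tillering, 1 base at 1 site at tillering, and no call at 13 sites at each stage. Thus no site with a call at heading showed 1 allele alone. A base difference is written here as the R9308 base, the position counted from the transcript start, and the Xieqingzao B base. SNPs were retained where each parent had 1 base at both stages with at least 10 reads, the hybrid had both bases with at least 20 reads in all at both stages, and the quality score was at least 20 in every pool. CESA genes held 4 of the 9325 retained SNPs.

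These 4 SNPs had no allelic bias at either stage by a two-sided exact binomial test at 0.01, where 17.1% of retained SNPs were called at heading and 16.3% at tillering. In CESA6, G235A had 96 reads of the R9308 allele and 84 of the Xieqingzao B allele at heading, a share of 53.3% (95% Wilson interval 46.1 to 60.5), and 50 and 58 at tillering, a share of 46.3% (37.2 to 55.7). In CESA7, C1664T had 39 and 38 reads at heading, 50.6% (39.7 to 61.5), and 17 and 26 at tillering, 39.5% (26.4 to 54.4). Both genes thus had the smaller R9308 share at tillering, and both CESA9 SNPs had the larger one there. In CESA9, G2391A had 40 and 32 reads at heading, 55.6% (44.1 to 66.5), and 30 and 18 at tillering, 62.5% (48.4 to 74.8). The other CESA9 SNP, A2433G, had 40 and 35 reads at heading, 53.3%, and 36 and 26 at tillering, 58.1%. All 8 intervals held 50%, and the smallest unadjusted p of the exact tests was 0.11, at G2391A at tillering. The intervals and the tests cover counting error in 1 pool only, and PCR copies of a molecule are not independent.

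None of the 4 shares differed between the stages by Fisher's exact test, with adjusted p-values of 0.77 or more, where 2.66% of retained SNPs did. None differed from the ratio of the parents by an exact conditional test, with adjusted p-values between 0.22 and 0.85, where 16.3% of retained SNPs did at heading and 9.68% at tillering. The smallest of these was at CESA6 G235A at tillering, with 46.3% in the hybrid and 36.2% from the parental reads scaled to their totals.

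More CESA SNPs could be read when the criteria were asked of 1 stage only. At heading this gave 11 SNPs, and 3 of them were called by the exact binomial test, where 20.1% of 17108 SNPs were. In CESA6, G1168A had 411 R9308 and 257 Xieqingzao B reads, a share of 61.5% (57.8 to 65.1, adjusted p = 1.7e-07 by the exact binomial test). C2464T of the same gene had 425 and 306 reads, a share of 58.1% (54.5 to 61.7, adjusted p = 0.00022 by the same exact test). In CESA9, A2631C had 40 and 15 reads, a share of 72.7% (59.8 to 82.7, exact adjusted p = 0.0083). R9308 carries the reference base at all 3 SNPs, and each share lay on the side of 50% on which the scaled parental reads lay, at 65.8%, 55.6% and 66.3%. At tillering 10 SNPs could be read and none was called, where 16.6% of 13829 SNPs were.

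**Figure D4:**
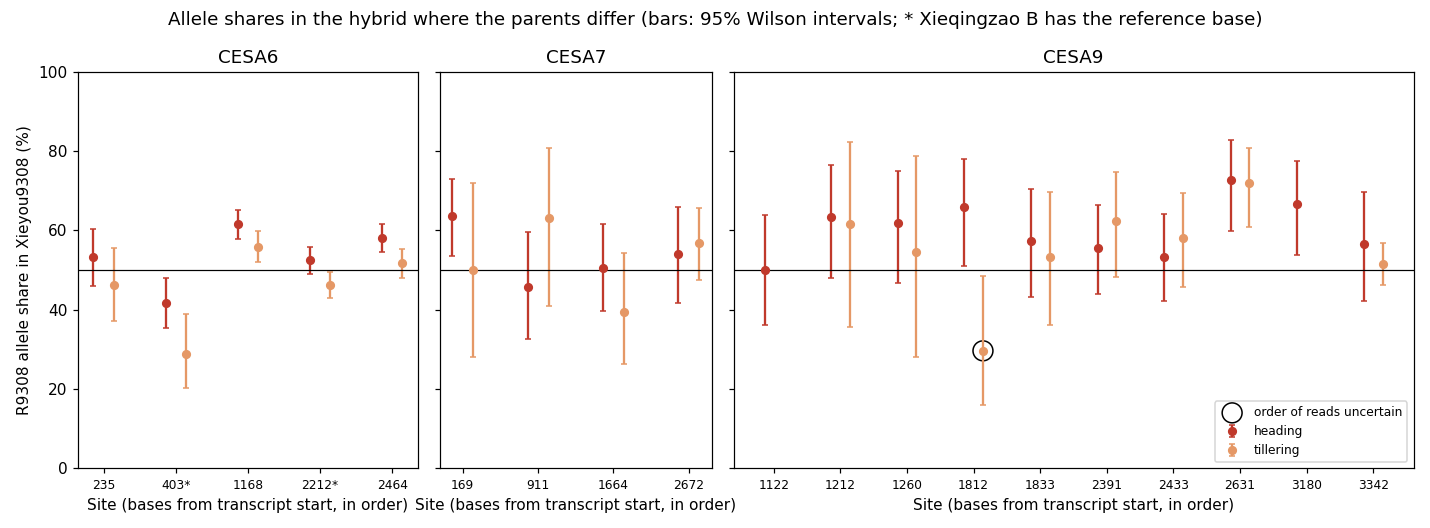
Share of reads with the R9308 allele (%) in Xieyou9308 at sites of CESA6, CESA7 and CESA9 where the parents differ, with 95% Wilson intervals that cover counting error. Sites are in order along the transcript and not to scale, heading stands left of tillering, and the circle marks a pair of read numbers whose order is uncertain. In CESA6 each heading point lies above its tillering point. In CESA9 9 of 10 heading points lie above 50% and 1 on it.

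Within CESA6 the alleles did not keep 1 share along the transcript. At heading the R9308 share was 53.3% at G235A, 41.6% at T403G, 61.5% at G1168A, 52.5% at C2212A and 58.1% at C2464T. At tillering it was 46.3%, 28.7%, 55.9%, 46.3% and 51.7% at the same sites. The site with the lowest share at both stages, T403G, is 1 of the 2 at which Xieqingzao B carries the reference base, and the reference base had more reads at 4 of the 5 sites at each stage. The share was higher at heading at all 5 sites, by between 5.63 and 12.9 percentage points. With the parental bases taken from either stage, 13050 SNPs could be compared, and 4 of the 5 sites had an unadjusted p under 0.05 by Fisher's exact test, but none passed adjustment over all SNPs, where 2.48% did. The smallest adjusted p in CESA6 was 0.18 by the same exact test, at C2212A, with 435 and 393 reads at heading and 413 and 479 at tillering. The 5 sites lie on 1 transcript in the same 2 pools and are not independent.

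In CESA9 the R9308 allele had more reads at 9 of 10 sites at heading, with a mean share of 60.3% and a range of 50 to 72.7%. At tillering it had more at 7 of 8 sites, with a mean of 55.4%. The sites lie on 1 transcript in the same 2 pools, some close together (positions 1812 and 1833), and are not independent. The exception among the 8 sites at tillering was T1812C, with 8 and 19 reads at tillering, 29.6%, against 29 and 15 at heading, 65.9%. Its pair of numbers is of a kind that a spreadsheet can read as a month and a day. The table holds 87917 pairs with 1 to 12 reads first and 13 to 31 second that form a month and a day. The other way round it holds 366 pairs, and 0 of these form a day and a month. The order of the 2 numbers at T1812C is therefore not certain. Turned round, the share would be 70.4%, all 8 sites would lie above 50% and the mean would be 60.5%. By the criteria asked of tillering alone, 2 further pairs of this kind were read, A2007T in CESA9 with 7 and 20 reads (25.9%, or 74.1% turned round) and T428C in CESA7 with 11 and 17 reads (39.3%, or 60.7%). Position 2007 was not among the 10 heading sites, since R9308 was called there with both bases at heading. Xieyou9308 had 10 reads of A and 28 of T at this position at heading, also a pair of this kind. At position 2481, left out likewise, it had 46 reads of the reference base and 30 of the Xieqingzao B base. At the deepest CESA9 site, G3342A, the share was 56.5% at heading (26 and 20 reads) and 51.5% at tillering (172 and 162 reads). In CESA7 the shares at 4 sites averaged 53.6% at heading and 52.4% at tillering, within ranges of 45.8 to 63.7% and 39.5 to 63.2%. CESA3 had 1 site with both alleles, T167G, with 22 and 30 reads at tillering and a quality score of 3.54.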

How the data were processed

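RNA of 12 root samples was sequenced by the authors, who removed low-quality reads, used RSEM to map the rest to Nipponbare (IRGSP build 5.0), merged the 2 roots per genotype and stage and called bases. The submitters' processing notes list CASAVA 1.8 and SAMtools 0.1.16. In the deposited table every pool has its called bases, the counts of reads behind them, which are not normalized, and a quality score from the authors' base caller.

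Reads per site were divided by the pool's sum over the 100680 sites called in all 6 pools and averaged per transcript. Levels had no test. Allele reads were tested on all SNPs of the table, with Benjamini-Hochberg adjustment over them, in Python 3.11.15 with scipy 1.17.1 and pandas 2.3.3, and the tests were checked on simulated data. Intervals for log2 differences use the mean reads per site. The text describes all measured CESA transcripts, the SNPs of CESA genes, and the transcripts with the highest correlation to the mean profiles. The genes and lists (wall, root and leaf loci) were chosen with earlier results of these data known. Other settings were tried for every result, 18 listed at the start and 7 chosen after seeing the data. RPKM values and edgeR results of the study were not used here, and no sequences were printed.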

Additional observations from a re-analysis of the deposited data

Results flagged for a closer look

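With 1 pool per genotype and stage, the following values ran in opposite directions in the groups compared, and none of these differences was tested. Heading over tillering was above 0 in Xieyou9308 and below 0 in both parents for CESA4 (log2 0.12, against −2.96 in R9308 and −2.56 in Xieqingzao B), CESA6 (0.22, against −0.93 and −1.99) and CESA7 (0.68, against −2.76 and −3.53). The value of CESA7 was 1.73 from sites before position 1500 and −0.15 from sites beyond it, so its direction in the hybrid rests on which sites are used.

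Xieyou9308 was above the mid-parent at heading and below it at tillering for CESA4 (2.23 at heading, −0.63 at tillering), CESA6 (1.39 and −0.30), CESA7 (2.28 and −1.46), CESA8 Os07t0208500-01 (1.07 and −0.55), CESA9 (2.34 and −0.44) and CESA1 Os05t0176100-02 (0.998 and −0.07). The tillering values include the pool with the 3′ gradient. R9308 over Xieqingzao B changed direction between stages for CESA6 (0.49 at heading, −0.57 at tillering) and CESA3 (−1.67 and 0.42). CESA3 was measured at 1 site. The level of CESA6 used 2 sites, with heading values of −0.003 at position 235 and 0.63 at position 1228. At heading both parents were also called at positions 403, 1168, 2212 and 2464 of this form. Before scaling these had 71, 372, 453 and 391 reads in R9308 and 105, 207, 383 and 334 in Xieqingzao B. At tillering 1 parent lacked a call at each of them, so a change between stages could not be read there.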

How the results depend on the processing

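Several settings changed how many transcripts could be counted. Of 11 transcripts, 3 were past 2-fold between stages in Xieyou9308, and this became 5 of 11 with the median over sites, 1 of 7 with quality of at least 20 in all pools, 6 of 16 with sites called in the pools compared, 1 of 6 with at least 3 sites, 1 of 6 with sites from position 1500, and 0 of 7 with 1 form per gene. In R9308 10 became 6 of 7 with the quality minimum or 1 form per gene and 6 of 6 with at least 3 sites or from position 1500. In Xieqingzao B 10 became 16 of 17 with sites called in the pools compared, 6 of 7 with 1 form per gene and 6 of 6 with at least 3 sites or from position 1500. The 4 past 2-fold between the parents at heading became 2, 2 and 1 with the quality minimum, at least 3 sites and sites from position 1500. The 4 over or under the mid-parent at tillering became 2, 1 and 2 under the same settings and 2 with 1 form per gene, and the 8 at heading became 5 of 6 from position 1500. Allelic bias at heading went to 3 of 11 SNPs, against 0 of 4, with the criteria asked of 1 stage, with or without date-like pairs turned round. The position settings, 1 form per gene and the turned pairs were chosen after seeing the data. The other 108 counts stayed within 1.5 times. Over all settings the log2 differences kept their sign in all 11 transcripts in R9308 (−3.09 to −0.84), in Xieqingzao B (−4.12 to −0.75) and over the mid-parent at heading (−0.16 to 2.53). Between stages in Xieyou9308 the sign changed in 4 transcripts, CESA3 (−1.68 to 0.05), CESA7 (−0.15 to 1.73), Os07t0208500-01 of CESA8 (−0.40 to 0.71) and CESA9 (−0.84 to 1.98), and over the mid-parent at tillering in 1. CESA3 kept its sign over the mid-parent at tillering but ran from −1.71 to −0.04. No paired analysis was possible because the roots were pooled and the columns carry no replicate. For the same reason no replicate could be left out. Depth was low in the parents at heading, with 9.1 to 31.8 reads per site in the secondary wall genes and 12.5 and 16.5 in Os05t0176100-05 of CESA1.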

Other observations

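The CESA1 site in Os05t0176100-02 at position 2399 was read in all 6 pools, with 167 and 271 reads in Xieyou9308 at heading and tillering, 82 and 354 reads in R9308, and 108 and 330 reads in Xieqingzao B. It is the only measured site of this form, and the form Os05t0176100-03 has a site at the same position. Among the CESA genes, CESA7 and CESA9 had the fewest calls with a quality score under 20, 2.70% and 2.27%, and CESA1 had the most among genes with a level, 53.0%.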
